A study of Homo sapiens with 12 samples.

Results

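The 53 genes described here run the mechanics of cell division: cyclins A and B with CDK1 and its activating phosphatases, the transcription factors FOXM1 and MYBL2, and the proteins of the spindle, the kinetochore, the chromosome passenger complex, the cleavage site, the condensed chromosome and the exit from mitosis. They were named as a list by gene symbol and found in the deposited expression table by that symbol, with the entry of highest mean taken where a symbol had several entries, which applied to SPC25. All 53 were found among 20318 gene entries, and all 53 passed the filter on low values that left 12721 entries for testing. They were sorted into 10 groups by their known role. Entries were found by symbol alone, but the list itself was drawn up with earlier results of these data known.

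In a dividing cell, cyclin B binds CDK1 to start mitosis, after CDC25 phosphatases remove the phosphates that WEE1 and PKMYT1 place on CDK1. Most genes of this set are transcribed late in the cycle, when the MuvB complex exchanges the repressive pocket proteins of the DREAM complex for MYBL2 and then FOXM1 at a promoter element called CHR, while the factor NF-Y binds CCAAT boxes nearby. They are widely used as markers of proliferation in lymphoma, where cyclin D1 drives mantle cells into the cycle upstream of them.

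Z138 is an established human mantle cell lymphoma line, a B cell cancer, and the labels give its genotype as wild type. Cells received 0.5 µM AU-15330 or the solvent DMSO and were harvested after 8 h or 24 h, which makes 4 groups with 3 samples each in the labels. AU-15330 is a PROTAC degrader of SMARCA2, SMARCA4 and PBRM1, the ATPases and a further subunit of the SWI/SNF chromatin remodelling complexes. The labels do not say whether the samples of a group were separate cultures, so p-values here reflect variation among the sequenced samples only, and that variation could be technical.

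A pair of columns of the table had the same name and identical values and was counted once. The labels of both replicate 2 and replicate 3 of DMSO at 8 h point to that name, so which of them the values belong to is unknown, and the library is called DMSO replicate 2 of 8 h below. As a result the DMSO group at 8 h had 2 libraries, the other groups had 3 and 11 libraries were analysed. The labels give the harvest time as the batch as well, so that time and batch cannot be told apart in a comparison of 24 h with 8 h, whereas each comparison of AU-15330 with DMSO lies within a batch. Estimated totals were 50741267 to 67580769 counts per library. All 7 B cell markers tested were expressed, and their summed normalised counts were 231939 to 240892 in DMSO and 177790 to 199912 under AU-15330 at 8 h, and 248999 to 258989 against 130899 to 146076 at 24 h. Gene by gene, 6 of the 7 were called lower at 8 h and all 7 at 24 h, against 21.4% and 26.2% of all genes tested. Their median changes were -1.48 and -1.75 on the log2 scale used below, larger falls than the sums show. Of the mantle cell markers, CCND1 had 146895 to 169249 counts in the 11 libraries and was not called at either time. SOX11 had 4640 to 5332 in DMSO at 24 h and 10879 to 11539 under AU-15330, a rise of 1.15 ± 0.078 on the log2 scale used below (limma adjusted p = 2.1e-07), and was not called at 8 h (0.19 ± 0.0872). Of 6 T cell markers 1 passed the filter, CD3G, and none of the myeloid, erythroid and megakaryocyte markers did. The T cell markers summed to 799 to 863 in DMSO and to 120 to 346 under AU-15330, and the stromal and epithelial markers, 3 of 5 of which passed, to 1030 to 1967 and 230 to 568. The part of these shifts in the results below was not tested.

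Promoter sequences were compared first, because they show what the genes have in common before any change is considered. RefSeq windows of 300 bases on GRCh38.p14, from 250 bases before to 50 after a start site, were held for 44 of the 53 genes, and 8 of these had several windows. The CHR letters TTTGAA, searched on both strands, stood in a window of 72.7% of the 44 genes, against 18.2% of all 27305 genes with a window and 13.8% of the 9039 among them that were tested here. With the variant TTCGAA, which is its own reverse complement, the shares were 77.3%, 19.5% and 15.8%. The CCAAT box, on either strand, stood in 77.3% of the 44, against 39.7% and 43.9%. Both kinds of element in the same window were found in 61.4%, against 7.85% and 6.76%, and at least 2 CCAAT boxes in 47.7%, against 12.9% and 17.1%. A match is a run of letters and not a shown binding site.

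The 200 bases from 170 before to 30 after the start site are printed for 7 genes, 5 that fell under AU-15330 at both times, 1 that rose at 24 h (NDC80) and 1 that was called at neither time (KIF11). Capitals mark TTTGAA and TTCGAA with their reverse complements and CCAAT with its reverse complement ATTGG, and the CCAAT and ATTGG of HMMR overlap in 1 run of letters. The sequences run 5′ to 3′ on the strand of the gene.
HMMR, chr5:163460462-163460661, plus strand: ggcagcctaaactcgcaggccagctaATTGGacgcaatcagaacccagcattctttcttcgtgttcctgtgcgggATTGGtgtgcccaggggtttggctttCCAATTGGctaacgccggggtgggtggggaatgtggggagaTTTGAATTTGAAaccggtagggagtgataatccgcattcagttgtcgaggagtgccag
PLK1, chr16:23678719-23678918, plus strand: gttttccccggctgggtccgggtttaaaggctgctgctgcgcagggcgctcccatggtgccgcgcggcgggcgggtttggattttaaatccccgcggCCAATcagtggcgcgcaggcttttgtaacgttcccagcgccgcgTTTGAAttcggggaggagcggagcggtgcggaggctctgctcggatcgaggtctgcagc
CCNB2, chr15:59104976-59105175, plus strand: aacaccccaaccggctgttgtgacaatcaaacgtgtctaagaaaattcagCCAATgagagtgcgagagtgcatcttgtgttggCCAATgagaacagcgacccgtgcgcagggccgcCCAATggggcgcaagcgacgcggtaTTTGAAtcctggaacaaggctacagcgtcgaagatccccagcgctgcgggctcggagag
TOP2A, chr17:40417867-40418066, minus strand: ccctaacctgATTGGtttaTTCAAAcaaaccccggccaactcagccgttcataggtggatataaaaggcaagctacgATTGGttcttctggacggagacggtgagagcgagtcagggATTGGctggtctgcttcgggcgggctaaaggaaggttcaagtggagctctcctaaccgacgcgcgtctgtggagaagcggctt
KIF20A, chr5:138178942-138179141, plus strand: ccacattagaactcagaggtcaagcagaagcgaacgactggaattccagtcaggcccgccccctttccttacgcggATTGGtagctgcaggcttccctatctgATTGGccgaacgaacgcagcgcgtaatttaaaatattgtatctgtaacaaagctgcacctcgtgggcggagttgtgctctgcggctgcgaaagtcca
NDC80, chr18:2571387-2571586, plus strand: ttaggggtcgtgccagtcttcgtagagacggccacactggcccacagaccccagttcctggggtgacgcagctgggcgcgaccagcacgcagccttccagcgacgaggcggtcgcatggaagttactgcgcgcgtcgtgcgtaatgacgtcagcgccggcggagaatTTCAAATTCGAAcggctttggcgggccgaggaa
KIF11, chr10:92592960-92593159, plus strand: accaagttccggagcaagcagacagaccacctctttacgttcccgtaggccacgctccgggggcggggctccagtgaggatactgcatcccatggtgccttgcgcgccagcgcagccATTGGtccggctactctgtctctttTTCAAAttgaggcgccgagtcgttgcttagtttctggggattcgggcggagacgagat

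In these windows TTTGAA begins 29 bases before the start site in PLK1 and CCNB2, and 28 before in HMMR, which holds a further copy 22 before. In KIF11 the match begins 28 before but lies on the opposite strand, printed as TTCAAA. CCNB2 and PLK1 fell under AU-15330 and KIF11 was not called, with the element at nearly the same place but reversed in KIF11. Place and strand did not separate the calls, however. In windows not printed here, forward TTTGAA begins 29 bases before the start site in MKI67 and 30 before in CDC25C. MKI67 and CDC25C were called at neither time. KIF20A holds CCAAT boxes only, and it fell at both times. NDC80 holds both CHR forms at the start site and no CCAAT box, and it rose at 24 h. By whether a gene fell, TTTGAA or TTCGAA stood in 75.0% of the 24 genes with a window that fell at one time or both and in 16 of the other 20, and CCAAT in 79.2% and 75.0%. At least 2 CCAAT boxes stood in 50.0% of the same 24 genes, and a CCAAT box with a CHR form in 62.5%. Of the 20 that were not called lower, 9 and 12 held them, which is little different. Of the 12 genes with a window that fell at both times, 66.7% and 75.0% held them. TTTGAA without the variant went the other way, at 66.7% of the 12 and of the 24, against 16 of the 20. With so few genes these shares are descriptions, with no test.

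Under AU-15330, 19 of the 53 mitotic genes fell and 3 rose at 8 h, and 22 fell and 4 rose at 24 h (limma, Benjamini-Hochberg adjusted p under 0.05 over all 12721 genes tested). The share that fell, 35.8% at 8 h and 41.5% at 24 h, stood above the background of 21.4% and 26.2% of all genes tested, and the share that rose, 5.66% and 7.55%, stood below 22.9% and 24.7%. Since the list was chosen with results known, these shares describe it and are no independent evidence of direction. Calls in either direction were 44.2% of all genes at 8 h and 50.9% at 24 h. The shares of all genes are the background for the counts by role and by list below as well. Changes were small: the median on log2(normalised count + 60) was -0.13 at 8 h and -0.09 at 24 h, against 0.02 and 0.01 over all genes, 41 of the 53 stayed within 0.25 of 0 at both times, and none passed 1. In bulk RNA fewer dividing cells and less message per cell cannot be told apart. Scaling bears on the 24 h counts. After quantile normalisation 10 genes were called higher and 13 lower (24.5%, near the 22.9% of all genes), and on log2(CPM + 1) and on log2(CPM + 5) 9 higher and 14 lower (26.4%, near 22.6%). With library medians centred 7 were higher and 21 lower (39.6% against 24.2%). The excess of falls over the background at 24 h therefore depends on the scaling, whereas at 8 h the share was 35.8% to 43.4% in the 4 scalings against 19.7% to 22% of all genes. The 24 h median over the 53 genes was -0.029 after quantile normalisation, -0.038 and -0.036 on the log2(CPM) scales and -0.062 with medians centred, against 0.055, 0.059, 0.044 and 0.038 over all genes. Of the 22 that fell at 24 h 12 were called in all 4 of these scalings, and of the 19 at 8 h, 18.

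**Figure D1:**
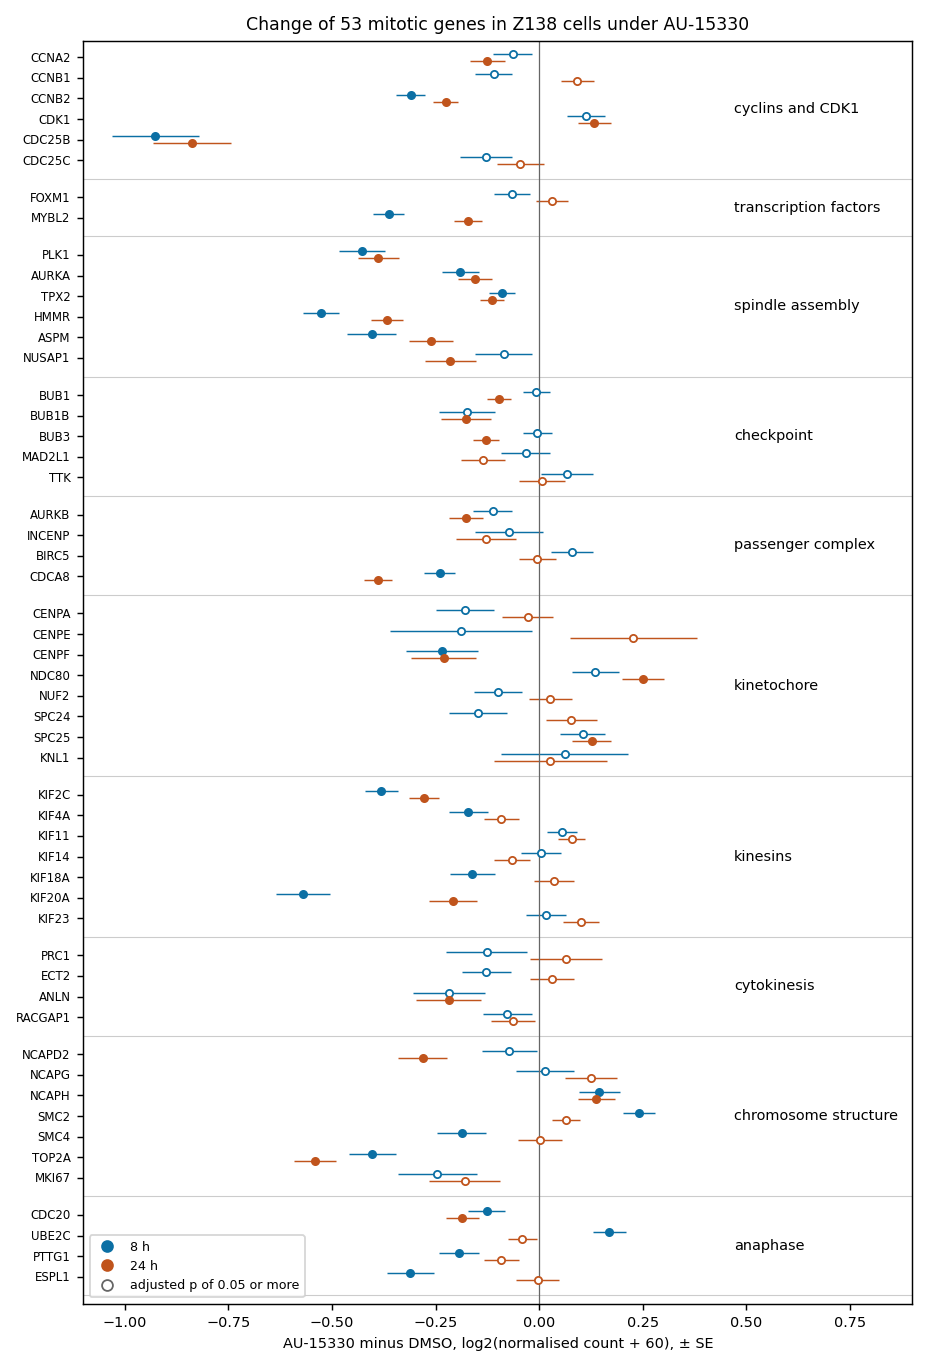
Change under AU-15330 of the 53 mitotic genes by role, at 8 h (blue) and 24 h (orange), on log2(normalised count + 60) with the standard error; filled points passed the limma threshold. CDC25B lies furthest left at -0.93 and -0.84, all 6 spindle assembly genes are filled at 24 h, and 20 genes have no filled point.

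Of the 53 genes, 14 fell at both times, 5 were called lower at 8 h alone, 8 were called lower at 24 h alone, and 20 were called at neither time. The 14 were CCNB2, CDC25B, MYBL2, PLK1, AURKA, TPX2, HMMR, ASPM, CDCA8, CENPF, KIF2C, KIF20A, TOP2A and CDC20. They make up 73.7% of the members that fell at 8 h and 63.6% of those that fell at 24 h, close to the 74.9% and 61.1% over all genes tested, of which 16% fell at both times. NCAPH was called higher at both times, SMC2 and UBE2C at 8 h, and CDK1, NDC80 and SPC25 at 24 h, and no gene was called in opposite directions. Counted by libraries alone, every AU-15330 library lay below every DMSO library for 30 genes at 8 h and 25 at 24 h and above for 5 and 9. The background of such non-overlap was 29.3% lower and 33.2% higher of all genes at 8 h, and 29.6% and 29.4% at 24 h. Averaged over the 53 genes, the AU-15330 libraries lay 0.130, 0.138 and 0.148 below the DMSO mean at 8 h on the log2 scale and 0.109, 0.093 and 0.081 below it at 24 h. Across the genes the changes at 8 h and 24 h had r = 0.77 (n = 53), and across all genes tested r = 0.75, given as descriptions.

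**Figure D2:**
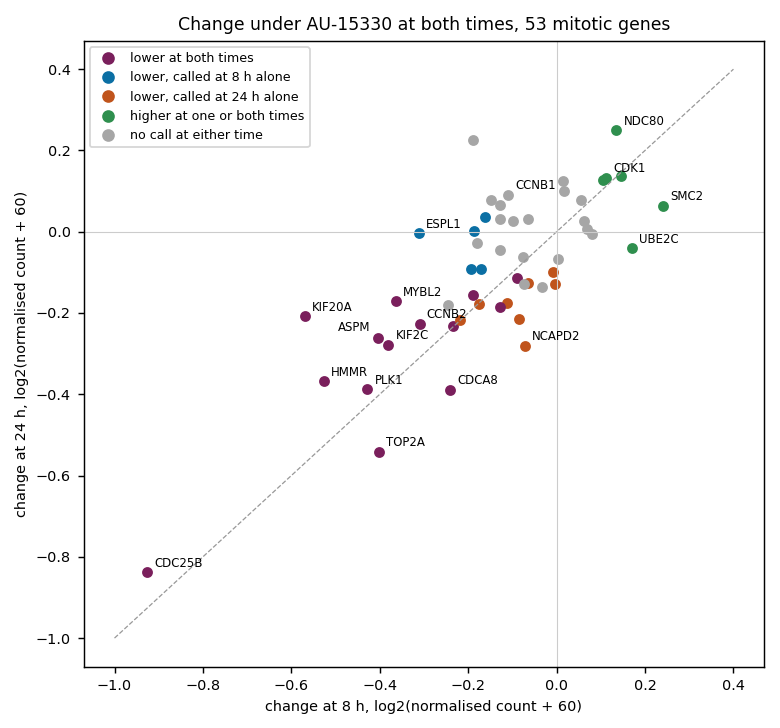
Change at 24 h against change at 8 h for the 53 mitotic genes, both on log2(normalised count + 60), coloured by the limma calls, with the line of equal change dashed. The changes at the 2 times had r = 0.77, which does not measure closeness to that line. CDC25B lies far from the other points at -0.93 and -0.84, and its part in r was not tested. KIF20A, ESPL1 and MYBL2 lie above the line, and UBE2C and SMC2 lie below it on the right.

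Among the cyclins, CDK1 and its activators, the phosphatase gene CDC25B and the cyclin gene CCNB2 fell at both times while CDK1 itself did not fall. CDC25B, which removes inhibitory phosphates from CDK1 at the centrosome (chr20:3786772-3806121, GRCh38), had 10305 and 9830 normalised counts in the DMSO libraries at 8 h and 5233, 5804 and 4812 under AU-15330. At 24 h it had 9117, 7959 and 8073 in DMSO and 4384, 4245 and 5414 under AU-15330. The treated libraries lay below all DMSO libraries by a wide gap at both times. The log2 change was -0.93 ± 0.105 (SE) at 8 h (limma adjusted p = 2.24e-05) and -0.84 ± 0.0937 at 24 h (1.73e-05), the largest of the 53 genes at both times. CDC25C, the related phosphatase, differed by -0.13 ± 0.0635 and -0.05 ± 0.0568 and was not called at either time.

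CCNB2, a B-type cyclin (chr15:59105078-59125045), had 8365 and 8493 counts in DMSO at 8 h against 6916, 6664 and 6785, and 9110, 9078 and 9112 against 7592, 7856 and 7874 at 24 h. Its replicates were the closest of all 53 genes, with an SD of 0.022 on the log2 scale, and the groups did not overlap. It fell by 0.31 ± 0.0344 at 8 h (limma adjusted p = 3.16e-05) and by 0.23 ± 0.0308 at 24 h (8.87e-05). CCNB1, the main mitotic cyclin (chr5:69167010-69178245), had 17182 and 16931 in DMSO and 16715, 15217 and 15505 under AU-15330 at 8 h, then 15988, 15082 and 14827 against 16196, 16336 and 16361 at 24 h. The treated libraries were below DMSO at 8 h and above it at 24 h, and neither difference was called (-0.11 ± 0.0448, adjusted p = 0.0676, and 0.09 ± 0.0401, 0.0795).

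CDK1, the kinase of the pair (chr10:60778331-60794852), had 10036 and 11005 in DMSO and 11457, 10928 and 11731 under AU-15330 at 8 h, where the groups overlapped. At 24 h it had 10517, 10322 and 10453 against 11355, 11271 and 11713, with every treated library above every DMSO library. It rose by 0.13 ± 0.0404 at 24 h (limma adjusted p = 0.0172), a call lost without DMSO replicate 2 (0.0532) or AU-15330 replicate 3 (0.0561) of that time, with 0.0013 to 0.0561 over 22 alternatives. CCNA2, the S and G2 phase cyclin, was called lower at 24 h (-0.13 ± 0.0426, adjusted p = 0.0292), but in 8 of 22 alternatives it was not, among them all 4 scalings and the fits without DMSO replicate 1 or 3 or AU-15330 replicate 1 or 2 of 24 h (0.0673 to 0.115). Its adjusted p ranged from 0.0119 to 0.305.

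The transcription factors parted. MYBL2, the MYB protein that joins the MuvB complex in S phase (chr20:43667019-43716496), had 31861 and 30889 in DMSO at 8 h against 23619, 25451 and 24100, and 29360, 28877 and 29215 against 25790, 26650 and 25215 at 24 h. Every treated library was below every DMSO library. It fell by 0.36 ± 0.0379 at 8 h (limma adjusted p = 1.87e-05) and by 0.17 ± 0.0339 at 24 h (0.0014), the later call being lost after quantile normalisation (0.0761, in a range of 0.000697 to 0.0761 over 22 alternatives). FOXM1, the forkhead factor of G2 (chr12:2857681-2877155), had 10894 and 10318 in DMSO against 9964, 10476 and 9959 at 8 h, and 10012, 10729 and 10594 against 10407, 10675 and 10918 at 24 h. The groups overlapped at both times, with differences of -0.07 ± 0.0439 and 0.03 ± 0.0392.

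The spindle assembly genes fell together: 5 of 6 were called lower at 8 h and 6 of 6 at 24 h, with medians of -0.30 and -0.24, and none was called higher. HMMR, which binds spindle microtubules and works with TPX2 (chr5:163460203-163491945), had 7035 and 7475 counts in DMSO at 8 h against 5116, 4836 and 5108, and 6888, 6612 and 6735 against 5244, 5108 and 5291 at 24 h. Treated and DMSO libraries were far apart at both times. It fell by 0.53 ± 0.0435 (limma adjusted p = 3.03e-06) and by 0.37 ± 0.0389 (1.35e-05). PLK1, the kinase of mitotic entry, centrosome maturation and spindle assembly (chr16:23677656-23690367), had 12816 and 13194 in DMSO against 9462, 9900 and 9595 at 8 h, and 12059, 12174 and 12495 against 8547, 9623 and 9907 at 24 h. The lowest DMSO library was well above the highest treated one each time, and PLK1 fell by 0.43 ± 0.0553 (7.74e-05) and by 0.39 ± 0.0495 (5.22e-05).

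ASPM, which focuses spindle poles, fell by 0.40 ± 0.0592 at 8 h (limma adjusted p = 0.000211) and by 0.26 ± 0.053 at 24 h (0.00154). AURKA, the centrosomal kinase that activates PLK1, and its activator TPX2 fell less. AURKA changed by -0.19 ± 0.0457 (0.00532) and -0.16 ± 0.0409 (0.00835). Its 8 h call was lost without DMSO replicate 2 of 8 h (0.0504), and its 24 h call on both log2(CPM) scales (highest 0.0525 of 22 alternatives). TPX2 changed by -0.09 ± 0.0316 (0.0401) and -0.11 ± 0.0283 (0.00594). At 8 h its call was lost in 11 of 22 alternatives, 8 of which leave out 1 library (either DMSO library of 8 h, AU-15330 replicate 1 or 3 of 8 h, any DMSO library of 24 h or AU-15330 replicate 2 of 24 h; 0.0542 to 0.168), and at 24 h in 3 of the 4 scalings (up to 0.395). NUSAP1, which bundles microtubules near chromosomes, was not called at 8 h (-0.09 ± 0.0684) and fell at 24 h by 0.21 ± 0.0612 (0.0124), with 0.0505 without AU-15330 replicate 1 of 24 h and 5.58e-05 to 0.0505 over the alternatives.

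**Figure D3:**
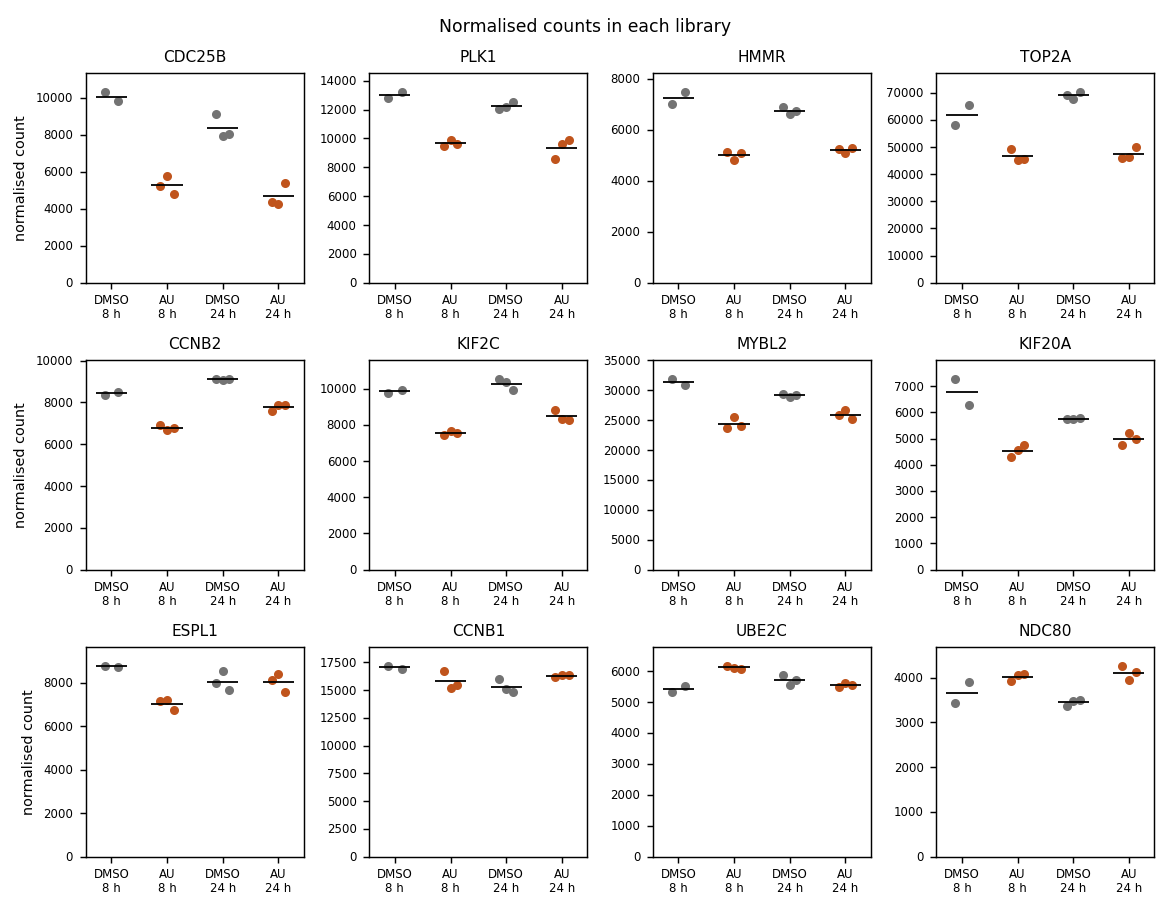
Normalised counts of 12 mitotic genes in each library (points) with the group mean (line), DMSO in grey and AU-15330 in orange. CDC25B, PLK1, HMMR, TOP2A, CCNB2, KIF2C, MYBL2 and KIF20A are lower in every treated library at both times, ESPL1 only at 8 h, UBE2C is higher at 8 h, CCNB1 crosses between the times, and NDC80 is higher in treated libraries.

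None of the 5 spindle checkpoint genes was called at 8 h, and BUB1, BUB1B and BUB3 were called lower at 24 h. BUB3, the scaffold that brings BUB1 and BUB1B to KNL1 (chr10:123154277-123170467), had 14952 and 15239 in DMSO against 15234, 14658 and 15265 at 8 h, with overlap, and 17102, 16838 and 16718 against 15515, 14949 and 15884 at 24 h, without overlap. BUB1, the kinase that marks centromeres (chr2:110637698-110678114), had 69416 and 69205 against 69824, 68556 and 68499 at 8 h, and 67534, 66422 and 63791 against 62296, 59774 and 62663 at 24 h. The treated libraries of both genes were the lower ones at 24 h, by -0.13 ± 0.0316 for BUB3 (limma adjusted p = 0.00555) and -0.10 ± 0.0292 for BUB1 (0.0149). BUB1B, the BUBR1 protein of the checkpoint complex (chr15:40161023-40221136), had 10619 and 10898 in DMSO against 10193, 9412 and 9000 at 8 h, and 10428, 10910 and 9605 against 8567, 9673 and 9105 at 24 h, where the groups overlapped, with a change of -0.18 ± 0.0605 (0.0298).

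These 3 checkpoint calls were lost in 3 of the 4 scalings. Their adjusted p ranged over the 22 alternatives from 0.0043 to 0.21 for BUB3, 0.00859 to 0.363 for BUB1 and 0.0125 to 0.197 for BUB1B. The BUB1 call was also lost without DMSO replicate 1 or 2 or AU-15330 replicate 2 of 24 h (0.0502 to 0.0691), and the BUB1B call without DMSO replicate 1 or 2 or AU-15330 replicate 1 or 3 of 24 h (0.0613 to 0.116). TTK, the MPS1 kinase that starts checkpoint signalling (chr6:80003887-80042527), had 5044 and 5406 in DMSO against 5698, 5155 and 5593 at 8 h, and 5728, 5159 and 5013 against 5273, 5398 and 5277 at 24 h. Its groups overlapped at both times (0.07 ± 0.0627 and 0.01 ± 0.0561). MAD2L1, the checkpoint protein that binds CDC20, was lower in every treated library at 24 h and missed the threshold (-0.14 ± 0.0524, adjusted p = 0.0506).

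In the chromosome passenger complex, CDCA8 fell at both times and the kinase gene AURKB at 24 h, while the survivin gene BIRC5 and the scaffold gene INCENP were not called. CDCA8, the borealin subunit (chr1:37692418-37709719), had 8284 and 7942 in DMSO at 8 h against 6865, 6879 and 6830, and 8096, 8046 and 8119 against 6314, 5963 and 6217 at 24 h. Replicates were tight and the groups stood apart, with falls of 0.24 ± 0.0373 (limma adjusted p = 0.000316) and 0.39 ± 0.0333 (2.37e-06). AURKB, the kinase of the complex (chr17:8204733-8210600), had 8488 and 8269 against 8005, 7471 and 7780 at 8 h, and 8076, 8565 and 8072 against 7592, 7240 and 7017 at 24 h. All treated libraries were below all DMSO libraries, and the change passed the threshold at 24 h (-0.18 ± 0.042, 0.00453) but not at 8 h (-0.11 ± 0.0469, 0.0746). After quantile normalisation the 24 h call was lost (0.0647, the highest of 22 alternatives that start at 0.0035). BIRC5 differed by 0.08 ± 0.0498 and -0.01 ± 0.0446, and INCENP by -0.07 ± 0.0817 and -0.13 ± 0.0731.

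Of the 8 kinetochore genes CENPF was called lower at each time (12.5%, against 21.4% and 26.2% of all genes). At 24 h 2 were called higher (25%, against 24.7%), and the median was -0.12 at 8 h and 0.05 at 24 h. NDC80, the microtubule-binding subunit of the outer kinetochore (chr18:2571511-2616635), had 3428 and 3890 in DMSO against 3924, 4050 and 4078 at 8 h, and 3361, 3481 and 3499 against 4257, 3954 and 4119 at 24 h. Every treated library was above every DMSO library at both times, and NDC80 rose by 0.25 ± 0.0509 at 24 h (limma adjusted p = 0.00171), with 0.14 ± 0.0569 at 8 h (0.0762). It was called in all 22 alternatives at 24 h (0.00054 to 0.00876). Its partners in the NDC80 complex, NUF2 and SPC24, differed by 0.03 ± 0.0521 and 0.08 ± 0.0615 at 24 h. SPC25 was called higher (0.13 ± 0.0476, 0.0416), but its call was lost in 12 of 22 alternatives (0.00896 to 0.128), 9 of which leave out 1 library of AU-15330 at 8 h or of either group at 24 h, and its 2 entries in the table can share reads, so that its value is uncertain.

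CENPF, a large protein of the outer kinetochore (chr1:214603195-214664588), had 28870 and 30376 in DMSO against 26123, 27232 and 22350 at 8 h, and 26855, 31484 and 27721 against 24776, 25624 and 22822 at 24 h. The groups did not overlap but spread widely, with changes of -0.24 ± 0.0869 (limma adjusted p = 0.0464) and -0.23 ± 0.0778 (0.0277). The 8 h call was lost in 11 of 22 alternatives (0.0242 to 0.206) and the 24 h call in 6 (0.00318 to 0.135). Leaving out 1 library was enough: at 8 h either DMSO library or AU-15330 replicate 1 or 3 of that time, DMSO replicate 3 or AU-15330 replicate 1 or 2 of 24 h (0.0523 to 0.206), and at 24 h DMSO replicate 2 or AU-15330 replicate 1 or 3 (0.0504 to 0.114). CENPA, the centromeric histone (chr2:26764289-26801067), had 2142 and 2049 in DMSO against 1832, 1901 and 1799 at 8 h, and 1897, 1897 and 1857 against 1672, 1904 and 1976 at 24 h. It was lower in every treated library at 8 h without passing the threshold (-0.18 ± 0.0692, 0.0509) and overlapped at 24 h. CENPE, the kinetochore kinesin, had 3804, 6018 and 4923 in DMSO and 6345, 6164 and 4645 under AU-15330 at 24 h, the widest replicate spread of the 53 genes, and KNL1, the checkpoint platform, was nearly as variable.

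Among the kinesins, 4 of 7 were called lower at 8 h (57.1%, against 21.4% of all genes). At 24 h 2 of these were called lower (28.6%, against 26.2%). KIF2C, the microtubule depolymerase at centromeres (chr1:44739818-44767767), had 9783 and 9931 in DMSO against 7423, 7681 and 7567 at 8 h, and 10533, 10377 and 9948 against 8805, 8357 and 8263 at 24 h. The groups were well separated, with falls of 0.38 ± 0.0403 (limma adjusted p = 2.2e-05) and 0.28 ± 0.036 (6.34e-05). KIF20A, the motor that brings passenger proteins to the midzone (chr5:138178719-138187715), had 7264 and 6278 against 4286, 4572 and 4741 at 8 h, and 5742, 5751 and 5789 against 4749, 5212 and 4985 at 24 h. It fell by 0.57 ± 0.065 at 8 h (3.61e-05), where the DMSO libraries differed most from each other, and by 0.21 ± 0.0581 at 24 h (0.0119).

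KIF4A, a chromosome-bound motor, and KIF18A, which dampens chromosome movement, were called lower at 8 h (-0.17 ± 0.0467, limma adjusted p = 0.0113, and -0.16 ± 0.0537, 0.0289). Without DMSO replicate 2 of 8 h neither was called (0.0703 and 0.221), nor was KIF18A without any 1 of the AU-15330 libraries of 8 h, in ranges of 0.00484 to 0.0703 and 0.0172 to 0.221 over 22 alternatives. KIF11, which pushes spindle poles apart, KIF14 and KIF23, both of cytokinesis, were called at neither time and lay between -0.07 and 0.10.

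The 4 cytokinesis genes gave 1 call, lower at 24 h (25%, against 26.2% of all genes). ANLN, the anillin scaffold of the contractile ring (chr7:36389806-36453791), had 5985 and 5390 in DMSO against 4602, 4826 and 5220 at 8 h, and 6289, 5441 and 5802 against 4486, 5208 and 5375 at 24 h. Treated libraries were lower at both times, and the 24 h change passed the threshold (-0.22 ± 0.0784, limma adjusted p = 0.0365). That call was lost in 3 scalings and without DMSO replicate 1 or 3 or AU-15330 replicate 1 of 24 h (0.0723 to 0.145), in a range of 0.0236 to 0.145 over 22 alternatives. ECT2, which activates RhoA at the cleavage site (chr3:172750682-172821474), had 6626 and 6800 against 6473, 6107 and 5851 at 8 h, and 6311, 6625 and 5982 against 6498, 6098 and 6732 at 24 h. RACGAP1, a subunit of the centralspindlin complex (chr12:49976923-50033136), had 14922 and 12868 against 13091, 13599 and 12732 at 8 h, and 12708, 12789 and 12749 against 12355, 11599 and 12689 at 24 h. Neither was called, and PRC1, the midzone bundler, differed by -0.13 ± 0.0984 and 0.06 ± 0.088.

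Of 7 genes of chromosome structure, 2 were higher and 2 lower at 8 h (28.6% each, against 22.9% and 21.4% of all genes). At 24 h 1 was higher and 2 were lower (14.3% and 28.6%, against 24.7% and 26.2%). TOP2A, the topoisomerase that untangles sister chromatids (chr17:40388516-40417950), had 58153 and 65469 counts in DMSO at 8 h against 49300, 45081 and 45721, and 69022, 67844 and 70150 against 46067, 46140 and 50072 at 24 h. All treated libraries lay far below DMSO, and the fall was 0.40 ± 0.0565 (limma adjusted p = 0.000164) and 0.54 ± 0.0505 (4.49e-06), the largest of the set at 24 h after CDC25B. MKI67, the Ki-67 antigen used to score proliferation (chr10:128096659-128126385), had 25322 and 24206 against 21486, 20773 and 20368 at 8 h, and 20520, 26077 and 22831 against 19263, 22910 and 19007 at 24 h. It was lower in every treated library at 8 h and overlapped at 24 h, and neither difference was called (-0.25 ± 0.0946, 0.0546, and -0.18 ± 0.0846, 0.099).

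The condensin subunits did not move as one. SMC2, an ATPase of the complex (chr9:104094260-104141417), had 10089 and 10780 in DMSO against 12245, 12505 and 12255 at 8 h, and 10767, 10812 and 10811 against 11178, 11044 and 11666 at 24 h. All treated libraries were higher, and SMC2 rose by 0.24 ± 0.0382 at 8 h (limma adjusted p = 0.000394) with 0.06 ± 0.0341 at 24 h (0.141). SMC4, its partner ATPase, was called lower at 8 h (-0.19 ± 0.0589, 0.0237), a call lost without DMSO replicate 2 (0.199) or AU-15330 replicate 1 (0.0784) of 8 h, in a range of 0.0118 to 0.199 over 22 alternatives. NCAPD2, a HEAT-repeat subunit (chr12:6493356-6531955), had 39427 and 37566 against 34043, 39940 and 36051 at 8 h, with overlap, and 43480, 41875 and 40884 against 32668, 34293 and 37008 at 24 h, a fall of 0.28 ± 0.0591 (0.00204). NCAPH, the kleisin subunit, rose by 0.15 ± 0.05 at 8 h (0.0361) and by 0.14 ± 0.0447 at 24 h (0.0231). Its 8 h call was lost in 7 of 22 alternatives (0.0282 to 0.251), among them those without DMSO replicate 1 or AU-15330 replicate 1 or 3 of 8 h, and its 24 h call without DMSO replicate 2 or AU-15330 replicate 3 of 24 h (0.0772 to 0.0981, in a range from 0.00153). NCAPG, the other HEAT-repeat subunit, was not called.

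The 4 anaphase genes were all called at 8 h, 3 lower and UBE2C higher, and at 24 h CDC20 alone was called. CDC20, the activator of the anaphase-promoting complex (chr1:43358955-43363203), had 13661 and 13058 in DMSO against 12107, 12444 and 12124 at 8 h, and 11173, 11234 and 10275 against 9676, 9369 and 9648 at 24 h. Both treated groups were below their DMSO groups, with changes of -0.13 ± 0.0438 (limma adjusted p = 0.0328) and -0.19 ± 0.0392 (0.00233). The 8 h call was lost in 5 of 22 alternatives (0.00736 to 0.203), among them those without DMSO replicate 1 (0.203) or AU-15330 replicate 1 (0.0784) or 3 (0.0769) of 8 h. PTTG1, the securin that holds separase inactive (chr5:160421822-160428744), had 4722 and 4929 against 4407, 4174 and 4066 at 8 h, and 5466, 5208 and 5092 against 4867, 4914 and 5001 at 24 h, with changes of -0.19 ± 0.0479 (0.00754) and -0.09 ± 0.0429 (0.0925). Without DMSO replicate 2 of 8 h its adjusted p was 0.0656 (0.00281 to 0.0656 over the alternatives), and near-identical copies of the gene make its value uncertain.

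ESPL1, the separase that cuts cohesin (chr12:53268299-53293643), had 8766 and 8725 in DMSO against 7176, 7212 and 6729 at 8 h, and 7973, 8520 and 7648 against 8116, 8409 and 7551 at 24 h. It fell by 0.31 ± 0.057 at 8 h (limma adjusted p = 0.00104) and the groups overlapped at 24 h (-0.004 ± 0.051). UBE2C, the ubiquitin-conjugating enzyme of the anaphase-promoting complex (chr20:45812576-45816957), had 5338 and 5530 against 6166, 6113 and 6076 at 8 h, and 5877, 5551 and 5712 against 5474, 5631 and 5546 at 24 h. Every treated library was higher at 8 h, a rise of 0.17 ± 0.0388 (0.00423), and the groups overlapped at 24 h (-0.04 ± 0.0347).

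**Figure D4:**
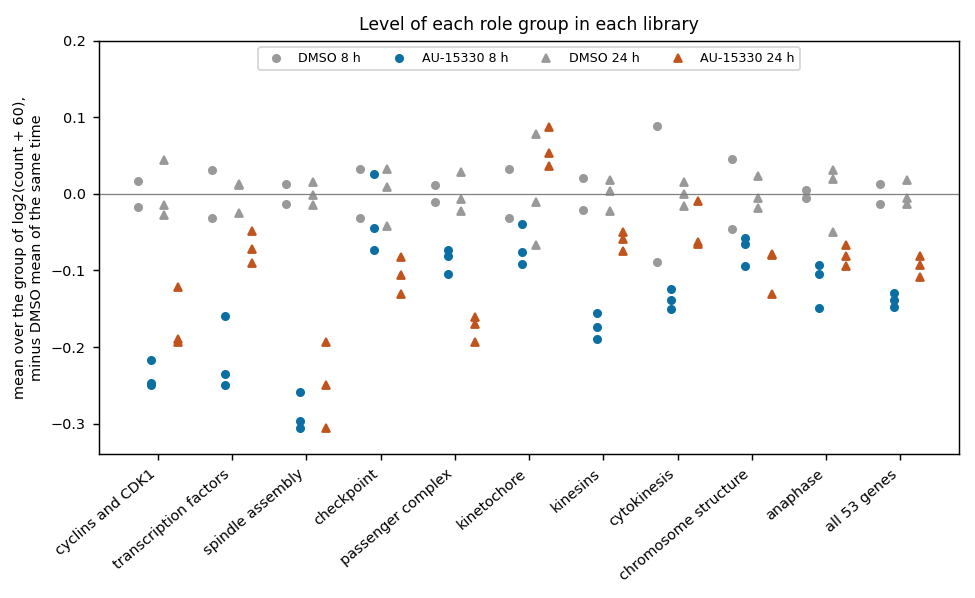
Mean of log2(normalised count + 60) over the genes of each role in each library, minus the DMSO mean of the same time; circles are 8 h and triangles 24 h, DMSO in grey. The spindle assembly genes lie lowest under AU-15330 at both times, and over all 53 genes the treated libraries lie between -0.148 and -0.081. Treated libraries of the kinetochore genes lie below 0 at 8 h and above it at 24 h, where they overlap DMSO (0.036 to 0.088 against -0.067 to 0.078).

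The effect of AU-15330 at 24 h minus that at 8 h, tested as an interaction, was called for 6 of the 53 genes, 4 higher and 2 lower, against a background of 18.5% of all genes in either direction, 7.54% higher and 11% lower. The difference was 0.36 ± 0.0872 for KIF20A (limma adjusted p = 0.0159), 0.31 ± 0.0764 for ESPL1 (0.0185), 0.20 ± 0.0601 for CCNB1 (0.0394) and 0.19 ± 0.0509 for MYBL2 (0.0242), and -0.21 ± 0.052 for UBE2C (0.0179) and -0.18 ± 0.0512 for SMC2 (0.0353). The DMSO libraries moved as well, which enters this comparison: DMSO at 24 h minus 8 h was -0.23 ± 0.065 for KIF20A (0.0446) and -0.16 ± 0.0448 for CCNB1 (0.0495), both called lower, and AU-15330 at 24 h minus 8 h was 0.13 ± 0.0581 (0.101) and 0.04 ± 0.0401 (0.411). For ESPL1 and UBE2C the treated libraries moved, by 0.19 ± 0.051 (0.0137) and -0.14 ± 0.0347 (0.00799), and the DMSO libraries by -0.12 ± 0.057 (0.213) and 0.07 ± 0.0388 (0.291). None of the 6 was called in every fit that left out 1 library. CCNB1 lost its call without any 1 library other than AU-15330 replicate 1 of 8 h and DMSO replicate 1 of 24 h (0.0599 to 0.109, in 0.0121 to 0.109 over 21 alternatives). MYBL2 lost it without DMSO replicate 1 or AU-15330 replicate 1 or 3 of 8 h, or DMSO replicate 2 or AU-15330 replicate 2 of 24 h (0.0524 to 0.0862, in a range from 0.00252). KIF20A lost its call without DMSO replicate 1 of 8 h (0.0629, in 0.00529 to 0.0629 over 21 alternatives), ESPL1 without either DMSO library of 8 h (0.00733 to 0.0575), and the UBE2C and SMC2 calls were lost in 3 of the 4 scalings (0.0154 to 0.124 and 0.0214 to 0.359). UBE2C also lost its call without DMSO replicate 1 of 8 h (0.0673), and SMC2 without any 1 library other than DMSO replicate 2 of 8 h and AU-15330 replicate 3 of 24 h (0.0567 to 0.136). The DMSO call of KIF20A was lost in 10 of 22 alternatives (0.0162 to 0.314), 7 of which leave out 1 library (DMSO replicate 1 or AU-15330 replicate 2 of 8 h, any DMSO library or AU-15330 replicate 2 or 3 of 24 h). That of CCNB1 was lost in 11 (0.0214 to 0.191), 8 of which leave out 1 library (either DMSO library or AU-15330 replicate 3 of 8 h, DMSO replicate 2 or 3 or any AU-15330 library of 24 h). The change of ESPL1 under AU-15330 lost its call without AU-15330 replicate 3 of 8 h or replicate 2 of 24 h (0.0561 to 0.0598, in a range from 0.00257).

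Between the times, 5 of the 53 genes were called in DMSO, BUB3 higher and CCNB1, BIRC5, KIF20A and CDC20 lower, against a background of 10.1% in either direction, 6.56% higher and 3.56% lower. Under AU-15330, 5 were called higher (CCNB2, KIF2C, KIF11, PTTG1 and ESPL1) and 7 lower (BUB1, BIRC5, CDCA8, KIF14, SMC2, CDC20 and UBE2C), against 39.4%, 18.3% and 21.1%. CDC20 was lower at 24 h than at 8 h in both, by 0.29 ± 0.0438 in DMSO (limma adjusted p = 0.00181) and 0.35 ± 0.0392 under AU-15330 (5.27e-05). BIRC5, which counters apoptosis as well as serving the passenger complex, also differed between times in both, by -0.18 ± 0.0498 (0.0428) and -0.27 ± 0.0446 (0.000791), though the DMSO call was lost in 11 of 22 alternatives (0.0136 to 0.239), 9 of which leave out 1 library, that is any but AU-15330 replicates 1 and 2 of 8 h. The BUB3 call in DMSO was lost after quantile normalisation and without either DMSO library of 8 h or DMSO replicate 1 of 24 h (0.0559 to 0.0957, in 0.0139 to 0.113). Under AU-15330 the KIF11 call was lost without AU-15330 replicate 3 of 8 h (0.0511, in a range from 0.00105) and the SMC2 call without AU-15330 replicate 2 of 24 h (0.0527) and in 2 scalings (0.0079 to 0.194 over all alternatives). After quantile normalisation the AU-15330 calls of CDCA8 (0.0515), KIF14 (0.0748) and UBE2C (0.0821) were lost, each the highest of 22 alternatives that start at 0.00368, 0.00784 and 0.0067. Time and batch cannot be told apart in these comparisons.

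Other mitotic genes, not among the 53, were counted from lists by role. Calls in these and the further lists below were not followed under other scalings or with a library left out. Of all genes tested, 21.4% fell and 22.9% rose at 8 h, and 26.2% fell and 24.7% rose at 24 h. Of 31 further genes of the spindle and centrosome, 12 fell (38.7%) and 4 rose (12.9%) at 8 h. At 24 h 11 fell (35.5%) and 3 rose (9.68%), and the medians were -0.01 and -0.06. DLGAP5, a spindle-stabilising protein, fell by 0.38 ± 0.0491 and by 0.12 ± 0.0439 (limma adjusted p = 8.45e-05 and 0.0359), and TACC3, a stabiliser of spindle fibres, by 0.23 ± 0.0497 and by 0.27 ± 0.0445 (0.00288 and 0.000334). NEK2, a centrosomal kinase, went the other way, with 5872 and 6097 counts in DMSO against 8293, 7774 and 8527 at 8 h and 6486, 6264 and 6488 against 7593, 8110 and 8990 at 24 h. Its groups were far apart, and it rose by 0.45 ± 0.0644 (0.000228) and by 0.35 ± 0.0576 (0.000401).

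Of 32 further kinetochore and centromere genes, 12 rose and 6 fell at 8 h (37.5% and 18.8%, against 22.9% and 21.4% of all genes). At 24 h 8 rose and 9 fell (25% and 28.1%, against 24.7% and 26.2%), and the medians were 0.13 and 0.07. Of those that rose, DSN1, a subunit of the MIS12 complex, had 2033 and 2133 counts in DMSO against 2665, 2796 and 2996 at 8 h and 2298, 2163 and 2048 against 2528, 2444 and 2596 at 24 h, a rise of 0.42 ± 0.0652 and of 0.21 ± 0.0583 (limma adjusted p = 0.000308 and 0.0106). CENPM, of the inner kinetochore, rose by 0.36 ± 0.0521 at 8 h (0.000153) and was not called at 24 h (-0.04 ± 0.0466). SGO2, which protects centromeric cohesion, rose by 0.30 ± 0.051 and by 0.18 ± 0.0456 (0.000536 and 0.0079). Among those that fell, SKA2, of the complex that tracks microtubule ends, had 6117 and 6639 in DMSO against 4533, 4586 and 4609 at 8 h and 7521, 7170 and 7633 against 5581, 5451 and 5685 at 24 h. It fell by 0.47 ± 0.0455 and by 0.41 ± 0.0407 (limma adjusted p = 1.27e-05 and 6.9e-06). HJURP, the chaperone that loads CENPA, fell by 0.41 ± 0.0508 and by 0.28 ± 0.0454 (6.54e-05 and 0.000302), and CENPT, which links the centromere to the NDC80 complex, by 0.79 ± 0.107 and by 0.52 ± 0.0961 (0.000111 and 0.000909). MIS12, of the complex that joins the inner and outer kinetochore, fell by 0.38 ± 0.0615 and by 0.38 ± 0.055 (0.000464 and 0.000121).

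Of 19 further genes expressed in G2 and M phase, 8 fell and 1 rose at 8 h (42.1% and 5.26%, against 21.4% and 22.9% of all genes). At 24 h 10 fell and 4 rose (52.6% and 21.1%, against 26.2% and 24.7%), and the medians were -0.09 and -0.16. HMGB2, a chromatin protein, had 43841 and 46630 in DMSO against 33537, 32282 and 32781 at 8 h and 44589, 48182 and 47591 against 33554, 32042 and 34286 at 24 h. It fell by 0.46 ± 0.0439 and by 0.49 ± 0.0392 (limma adjusted p = 9.39e-06 and 1.35e-06), and LMNB1, of the nuclear lamina, by 0.35 ± 0.0456 and by 0.38 ± 0.0408 (9.91e-05 and 1.4e-05). PIMREG, a mitotic regulator, rose by 0.20 ± 0.055 and by 0.58 ± 0.0492 (0.0109 and 2.03e-06). Of 20 genes of the anaphase-promoting complex and mitotic exit, 6 rose (30%) and 4 fell (20%) at 8 h. At 24 h 4 rose (20%) and 5 fell (25%), near the shares of all genes. ANAPC7, a subunit of that complex, fell by 0.45 ± 0.0482 and by 0.52 ± 0.0431 (2.12e-05 and 1.57e-06). MASTL, the Greatwall kinase that restrains the phosphatase of mitotic exit, was not called at 8 h (0.08 ± 0.0584) and rose by 0.33 ± 0.0522 at 24 h (0.000285). Of 14 genes of cohesin and condensin II, 3 rose (21.4%) and 2 fell (14.3%) at 8 h. At 24 h 3 rose (21.4%) and 4 fell (28.6%), also near the shares of all genes. PDS5A was among those that rose (0.42 ± 0.053 and 0.28 ± 0.0474).

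Of 17 genes of MuvB, DREAM and the E2F factors, 7 fell and 3 rose at 8 h (41.2% and 17.6%, against 21.4% and 22.9% of all genes). At 24 h 7 fell and 5 rose (41.2% and 29.4%, against 26.2% and 24.7%), and the medians were -0.02 and -0.05. Of the MuvB core, LIN9 had 2888 and 3338 in DMSO against 3602, 3578 and 3491 at 8 h and 2765, 2615 and 2619 against 3061, 3063 and 3318 at 24 h, and it rose by 0.19 ± 0.0643 and by 0.23 ± 0.0575 (limma adjusted p = 0.0287 and 0.00599). LIN52 and the CHR-binding subunit LIN54 were not called (0.16 ± 0.131 and 0.15 ± 0.117, and -0.14 ± 0.0974 and 0.13 ± 0.0872). The activator E2F1 fell by 0.28 ± 0.044 and by 0.23 ± 0.0394 (0.000373 and 0.000549) and the repressor E2F7 by 0.62 ± 0.0852 and by 0.51 ± 0.0762 (0.000162 and 0.000158). E2F3, another activator, and E2F5, which pairs with pocket proteins, went the other way. E2F3 rose by 0.19 ± 0.0471 and by 0.25 ± 0.0421 (0.00842 and 0.000428) and E2F5 by 0.40 ± 0.0881 and by 0.32 ± 0.0788 (0.00321 and 0.00524). RB1, the pocket protein that restrains E2F, had 24327 and 23730 in DMSO against 19937, 19730 and 19560 at 8 h and 26540, 28866 and 27637 against 17301, 16887 and 18378 at 24 h. It fell by 0.28 ± 0.0434 (0.00032) and by 0.66 ± 0.0389 (1.15e-07). Of the pocket proteins of DREAM, RBL2 fell at 24 h (-0.23 ± 0.0469, 0.00163) and RBL1 was not called.

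Of 12 cyclin-dependent kinase regulators tested, 3 fell and 2 rose at 8 h (25% and 16.7%, against 21.4% and 22.9% of all genes). At 24 h 2 fell and 3 rose (16.7% and 25%, against 26.2% and 24.7%). CDKN1A, the p21 inhibitor, had 10377 and 10990 counts in DMSO against 5375, 4995 and 4644 at 8 h and 13194, 12209 and 12459 against 10596, 10161 and 9203 at 24 h. All treated libraries lay below DMSO, with falls of 1.09 ± 0.0701 (limma adjusted p = 5.07e-07) and 0.34 ± 0.0627 (0.000605). WEE1, the kinase that inhibits CDK1 and opposes CDC25B, had 7912 and 7326 against 11170, 11575 and 11235 at 8 h and 8781, 9491 and 9860 against 9776, 9628 and 10096 at 24 h. It rose by 0.57 ± 0.0519 at 8 h (6.7e-06), when CDC25B fell by 0.93, and its groups overlapped at 24 h (0.07 ± 0.0464). Both effects were smaller at 24 h than at 8 h, with interactions of 0.75 ± 0.094 for CDKN1A (0.000633) and -0.50 ± 0.0697 for WEE1 (0.000856), whereas the interaction of CDC25B was 0.09 ± 0.141 (0.606).

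Of 30 DNA replication genes, which act in S phase, 13 rose and 6 fell at 8 h. At 24 h 10 rose and 11 fell, and the medians were 0.06 and 0.04. The shares that fell were 20% and 36.7%, against 35.8% and 41.5% of the 53 mitotic genes and 21.4% and 26.2% of all genes. The shares that rose were 43.3% and 33.3%, against 5.66% and 7.55% of the 53 and 22.9% and 24.7% of all genes. TYMS, which makes thymidylate, had 27275 and 28179 in DMSO against 20804, 21085 and 21297 at 8 h and 28869, 27978 and 28469 against 21812, 21908 and 21763 at 24 h. It fell by 0.40 ± 0.0292 and by 0.38 ± 0.0261 (limma adjusted p = 1.39e-06 and 3.96e-07). PRIM1, the primase subunit, rose by 0.35 ± 0.0421 and by 0.12 ± 0.0377 (5.84e-05 and 0.0217). The difference between the lists was not tested.

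Replicate spread differed between the 53 genes, and how it relates to the calls was not tested. The SD between replicates on the log2 scale had a median of 0.0582 and ran from 0.022 for CCNB2 to 0.231 for CENPE, and its median over 7660 genes tested in the same range of level was 0.0722. The spread tended to be larger where the longest annotated transcript was longer, which need not be the one expressed. Over the 52 genes with a GENCODE transcript, r between the log10 length of the longest transcript and the SD was 0.49, against 0.20 over 7332 genes in that range. The part of CENPE and KNL1 in the r of 0.49 was not tested. CENPE, KNL1, MKI67 and CENPF, whose longest transcripts have 8612, 9573, 12678 and 10307 bases, had SDs of 0.231, 0.205, 0.125 and 0.114. ASPM and BUB3, at 10887 and 7828 bases, had 0.0715 and 0.0315. Length had r = -0.10 with the change at 8 h and -0.07 with that at 24 h, and level had r = -0.07 with the SD.

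**Figure D5:**
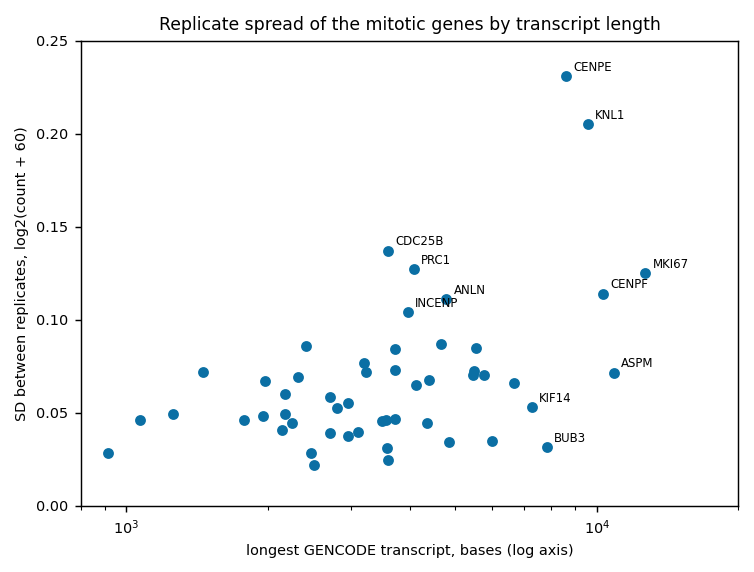
SD between replicates on log2(normalised count + 60) against the length of the longest GENCODE transcript (log axis) for 52 of the 53 mitotic genes. CENPE and KNL1 lie highest at 0.231 and 0.205, and most genes lie near the median of 0.0582.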

How the data were processed

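Short-read RNA sequencing of Z138 cells was used as deposited. The submitters' processing notes name FastQC 0.11.9, kallisto 0.46.1, DESeq2 1.24.0, GRCh38.p13, R 4.3.2 and Trimmomatic 0.40, and the labels' protocols give reads of 50 bp. The labels name a poly(A) kit and a ribosomal depletion kit, and single-end or paired-end reads, without saying which was used for which library. The use of strand in counting is unstated in labels and notes, which makes overlapping genes uncertain. The authors deposited log2 values whose common minimum of 10.361 and range fit a variance-stabilising transform of normalised counts. That transform was inverted to normalised counts, of which 59.4 equal 1 CPM. At low values, up to 20 counts, 53.96% to 56.27% were within 0.02 of a whole number, so no count model was run.

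Of 12 value columns 1 repeated another and was not used. Groups came from sample titles. Entries reaching 1 CPM in 3 or more libraries, 12721 in all, were fitted on the deposited log2 scale in limma 3.58.1 (R 4.3.3), with 1 mean per group, 7 residual degrees of freedom and a mean-dependent prior, and Benjamini-Hochberg adjustment over all of them at 0.05. Changes and SEs come from the same model on log2(normalised count + 60), which understates folds of low genes. The procedure was tested on simulated data. Coordinates are those of GENCODE release 29 on GRCh38, matched for 91.41% of entries, and promoters those of RefSeq. Tables were made with Python 3.11.15, pandas 2.3.3 and NumPy 2.4.6 and figures with Matplotlib 3.10.9.

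The members and the lists were chosen with earlier results of these data known. Every library's value is given for the 2 genes of each role with the smallest p at each time and for CCNB1, CDK1, PLK1, AURKB, FOXM1, MYBL2, TOP2A and MKI67. From each other list the 3 genes with the smallest p at each time and 10 regulators could be named, and those given, with DSN1, CENPM, SGO2, E2F3 and E2F5 added for genes that rose, are a selection made after their values were seen. Alternatives were 4 scalings, no filter and a filter at 5 CPM, fits of the compared groups alone, a robust prior and one without trend, a replicate block, a minimum change of 0.25, the mean over repeated entries, and leaving out each library.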

Additional observations from a re-analysis of the deposited data

Results flagged for a closer look

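For 6 of the 53 mitotic genes the effect of AU-15330 differed between 8 h and 24 h by limma's interaction term, 24 h minus 8 h on log2(normalised count + 60). That share is below the 18.5% called over all genes tested, and none of the 6 kept its call in every fit that left out 1 library. The difference was 0.20 for CCNB1, whose treated libraries lay below DMSO at 8 h and above it at 24 h. It was 0.36 for the kinesin KIF20A, with changes of -0.57 and -0.21 at the 2 times, 0.31 for the separase gene ESPL1 and 0.19 for MYBL2, each of which was lower at 8 h by more than at 24 h. It was -0.21 for UBE2C and -0.18 for SMC2, both of which were called higher at 8 h alone. The comparison rests on the 2 DMSO libraries of 8 h, and time and batch cannot be told apart in it.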

How the results depend on the processing

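Of the 19 genes that fell at 8 h, 18 (all but CENPF) were called in all 4 scalings, and 11 in every alternative without a minimum change, as were 11 of the 22 that fell at 24 h (CCNB2, CDC25B, PLK1, HMMR, ASPM, CDCA8, KIF2C, KIF20A, NCAPD2, TOP2A and CDC20). No value of the 53 genes that was called changed sign. After quantile normalisation 10 genes were higher and 13 lower at 24 h, 10 higher and 0 lower in the interaction with a median of 0.127, 0 higher and 7 lower in DMSO between times, and 11 higher and 3 lower under AU-15330 between times. Centring library medians gave 7 higher at 24 h. On log2(CPM + 1), 9 were higher and 14 lower at 24 h, 0 lower in the interaction and 8 higher under AU-15330 between times. On log2(CPM + 5) these were 9, 14, 0 and 8, with 7 higher in the interaction. Without a filter 1 was lower in the interaction and 1 in DMSO between times, and with the compared groups alone 2 in DMSO. Requiring a change of 0.25 left 0 higher and 10 lower at 8 h, 0 and 8 at 24 h, 2 and 0 in the interaction, 0 and 1 in DMSO between times and 0 and 2 under AU-15330. The cause of these shifts was not tested.

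Leaving out 1 library gave 2 to 6 higher and 14 to 21 lower at 8 h, 1 to 7 higher and 17 to 23 lower at 24 h, 1 to 4 higher and 0 to 3 lower in the interaction, 0 to 1 higher and 1 to 4 lower in DMSO between times, and 3 to 7 higher and 6 to 10 lower under AU-15330 between times. The 8 h count of higher genes was 6 without DMSO replicate 2 of 8 h. That at 24 h was 7 without either DMSO library of 8 h, 2 without DMSO replicate 2 and 1 without AU-15330 replicate 3 of 24 h. Where this left 1 DMSO library at 8 h, it was assumed to vary like the other groups. Whether replicate numbers paired the samples is not settled. Deviations of same-numbered libraries had r between -0.04 and 0.13. Among the groups with 3 libraries, same-numbered pairs had 0.03 to 0.13 and other pairs -0.1 to 0.04, so a weak pairing is not excluded. Pairs with DMSO at 8 h say little, since the number of 1 of its 2 libraries is unknown. With the replicate block 1 gene was lower in the interaction and 2 in DMSO between times.

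With 2 DMSO libraries at 8 h and 3 in the other groups, the number of libraries limits precision, and a missed threshold does not show that a gene did not change.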
